A study of Danio rerio with 13 samples.

Results

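*cxcr4a* and *cxcr4b* are the zebrafish copies of the chemokine receptor gene *CXCR4*. Their transcript levels were examined in GFP+ cells sorted from 13 fish with acute lymphoblastic leukemia (ALL), 1 array per fish. Members were taken as every probe set of the array annotated to *cxcr4a* or *cxcr4b* alone, which gave 1 probe set for each gene, Dr.15055.1.S1_at for *cxcr4a* and Dr.6798.1.S1_at for *cxcr4b*. These are 2 genes of the 8793 named genes measured, and 2 probe sets of 15502. The pair was chosen by these same measured levels, which were higher in *hMYC* than in *hlk* ALL and higher in every *hMYC-2* than in every *hMYC-1* array. The levels of the receptors and their differences between groups are therefore descriptions, and no test is attached to them.

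Adult *D. rerio* of 2 genetic backgrounds were compared. The first carried both a *rag2:hMYC* and an *lck:eGFP* transgene, so that human MYC was driven by the promoter of a recombinase gene used by lymphoid precursors, and no tamoxifen was given. The second was *hlk;lck:eGFP*, a zebrafish model of T-cell ALL with the same *lck*-driven reporter. GFP+ cells, bright and dim together, were sorted from the body of each fish. The study reports *hMYC* fish that carried a pre-B and a T-cell ALL at once. It proposes that the *hMYC* samples held B and T cells in different fractions, so an *hMYC* array may pool both. The array titles give 3 *hlk*, 4 *hMYC-1* and 6 *hMYC-2* samples. The *hMYC-1* and *hMYC-2* groups were defined from an unsupervised grouping of these arrays, so a contrast between them describes that division and is not independent evidence of it. All comparisons with *hlk* share the same 3 arrays. Arrays have no read depth, and precision here is limited by the number of arrays in a group.

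CXCR4 is a seven-pass receptor that couples to inhibitory G proteins and directs cells along gradients of its ligand CXCL12. In mammals it holds B-cell precursors and hematopoietic stem cells in the marrow, and it is used by ALL cells for homing and niche retention. Teleosts carry a pair of copies of the receptor and of the ligand from a genome duplication. In zebrafish embryos *cxcr4b* is known for guiding primordial germ cells and the lateral line primordium, and *cxcr4a* for endoderm movement and vessel patterning.

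Values are log2 levels after robust multi-array averaging (RMA), which corrects background, equalizes arrays and combines the probes of a set. The set of 17 control tags on the array, which match no zebrafish transcript, reached at most 5.68, and this value was used as the bound of background. Correlations between arrays of the same group over all probe sets ran from 0.955 to 0.992. One library stood apart in RNA quality: the GAPDH control signal at the 3′ end exceeded that at the 5′ end by 4.69 on the log2 scale in *hlk* replicate 1, against 1.09 to 2.49 in the other 12 arrays, the highest of which was *hMYC-1* replicate 3. Differences of the receptors from *hlk* are therefore given with and without replicate 1.

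*cxcr4a* was near background in *hlk* and bright in both *hMYC* groups. In *hlk* its log2 level was 6.22, 5.10 and 5.91 in replicates 1 to 3, so 1 of 3 arrays lay below the brightest control tag. In *hMYC-1* it was 12.06, 12.15, 10.98 and 11.91 in replicates 1 to 4. In *hMYC-2* the lowest array read 12.24, the median was 12.35 and the highest was 12.47. The *hlk* arrays stayed well under all 10 *hMYC* arrays, and *hMYC-1* replicate 3 was the lowest of those 10. Group means were 5.74 ± 0.58 (S.D., n = 3), 11.78 ± 0.54 (n = 4) and 12.36 ± 0.08 (n = 6).

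*cxcr4b* was already expressed in *hlk*. It read 8.63, 9.0 and 9.09 in the 3 *hlk* arrays, each of them above the control tags. In *hMYC-1* the 4 arrays read 11.93, 11.36, 10.82 and 11.55. In *hMYC-2* the lowest was 11.95, the median 12.10 and the highest 12.26. As for *cxcr4a*, *hMYC-1* replicate 3 was the lowest *hMYC* array, and the *hlk* and *hMYC* arrays did not overlap. Group means were 8.91 ± 0.24 (S.D., n = 3), 11.42 ± 0.46 (n = 4) and 12.10 ± 0.14 (n = 6).

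**Figure D1:**
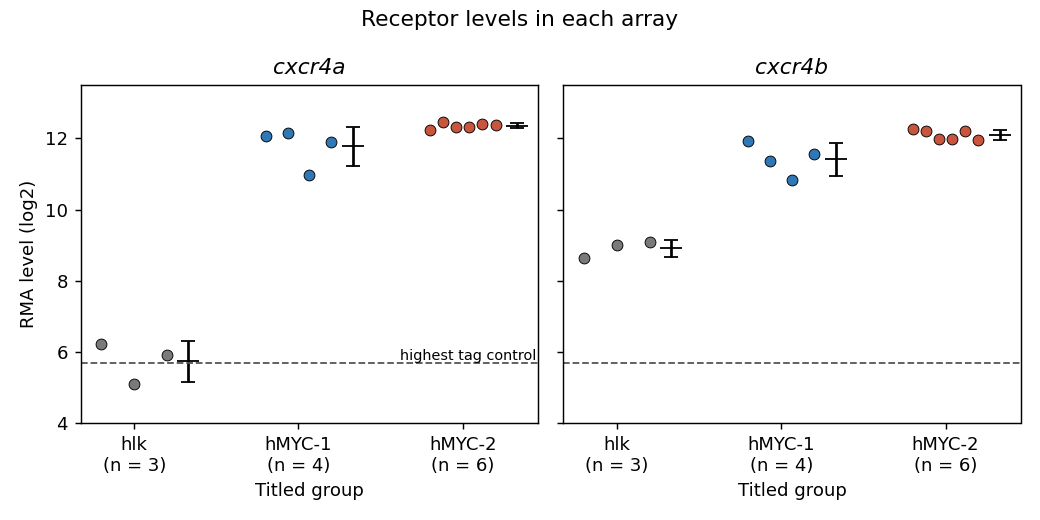
RMA log2 level (vertical axis) of *cxcr4a* and *cxcr4b* by titled group, with 1 point per array, the bar and whiskers giving the mean and S.D. and the dashed line the brightest control tag at 5.68. *cxcr4a* started from 5.10 to 6.22 in *hlk* and *cxcr4b* from 8.63 to 9.09, and both lay between 10.82 and 12.47 in all *hMYC* arrays.

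The paralogs differed in the size of the step from *hlk* and much less in the step between the *hMYC* groups. Over all 10 *hMYC* arrays *cxcr4a* was higher than in *hlk* by 6.38 on the log2 scale, an 83.3-fold difference, and *cxcr4b* was higher by 2.92, or 7.55-fold. Because *cxcr4a* was close to background in *hlk*, where a probe set responds less than in proportion, its fold depends on what the low arrays measured. Ranked by rise among the 8793 named genes, *cxcr4a* was the 3rd and *cxcr4b* the 91st, and the size of falls was not part of this ranking. Without *hlk* replicate 1 these differences were 6.62 and 2.78. Every *hMYC* array exceeded every *hlk* array for both receptors, an order found for 8.86% of the named genes, and the choice of the pair used this contrast.

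Taken separately, *hMYC-1* exceeded *hlk* by 6.03 for *cxcr4a* and by 2.51 for *cxcr4b*, or 65.4-fold and 5.69-fold. *hMYC-2* exceeded *hlk* by 6.61 and 3.19, or 97.8-fold and 9.13-fold. Without *hlk* replicate 1 the differences were 6.27 and 2.37 for *hMYC-1*, and 6.85 and 3.05 for *hMYC-2*. Levels in *hMYC-1* had thus covered 91.2% of the log2 distance from *hlk* to *hMYC-2* for *cxcr4a* and 78.6% for *cxcr4b*, or 91.5% and 77.7% without that replicate. Every array was higher than every *hlk* array for 12.3% of named genes in the *hMYC-1* group and for 11.5% in the *hMYC-2* group, the background to the complete separation of both receptors. The probe-set difference *cxcr4a* minus *cxcr4b* moved by 3.46 from *hlk* to *hMYC*, from -3.16 ± 0.75 (S.D., n = 3) to 0.36 ± 0.30 in *hMYC-1* (n = 4) and 0.26 ± 0.16 in *hMYC-2* (n = 6). These values follow the shift within an array. They do not rank the abundance of the transcripts, because each probe set has its own response.

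**Figure D2:**
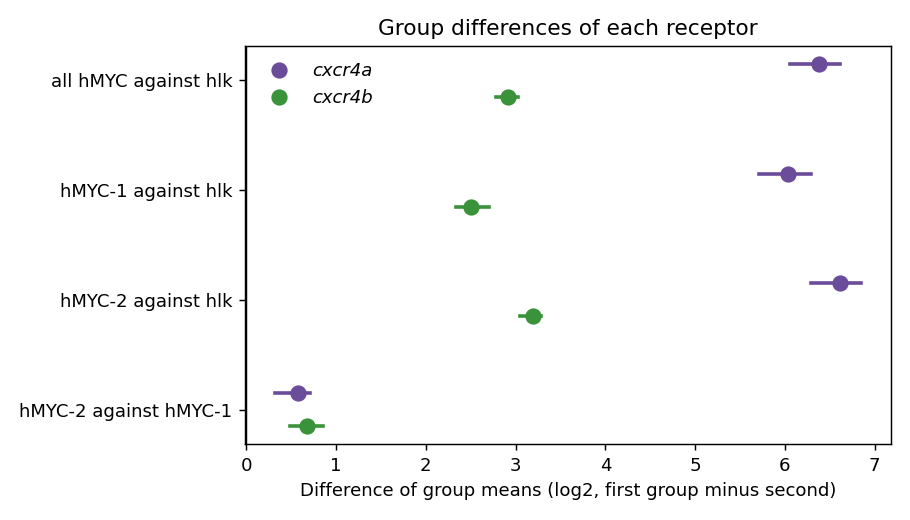
Difference of group means (horizontal axis, log2, first group minus second) of each receptor in the 4 comparisons, with points for all arrays and lines for the range when each array was left out in turn. The step from *hlk* to *hMYC* was 6.38 for *cxcr4a* and 2.92 for *cxcr4b*, whereas *hMYC-2* exceeded *hMYC-1* by 0.58 and 0.68.

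Between the *hMYC* groups the receptors were close. *hMYC-2* exceeded *hMYC-1* by 0.58 for *cxcr4a* and by 0.68 for *cxcr4b*, which are 1.49-fold and 1.60-fold. *hMYC-1* replicate 3 carried much of this. Without it the differences were 0.32 and 0.48. The arrays nearest to each other across the groups were *hMYC-1* replicate 2 and *hMYC-2* replicate 1 for *cxcr4a*, 0.09 apart, and *hMYC-1* replicate 1 and *hMYC-2* replicate 6 for *cxcr4b*, 0.02 apart. Complete separation in this direction was seen for 1.72% of named genes. Quantile normalization of the arrays turned these gaps to -0.0081 and -0.01, and a shift to equal housekeeping genes turned them to -0.25 and -0.0033. In both settings the groups then overlapped. The order of all arrays between *hMYC-1* and *hMYC-2* was therefore set by differences smaller than what scaling moved, an alternative chosen after seeing the data.

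Spread within the groups was unequal. For *cxcr4a* the S.D. was 0.54 among *hMYC-1* arrays against 0.08 among *hMYC-2* arrays, and for *cxcr4b* the S.D. values were 0.46 and 0.14. Within *hMYC-2*, the only group with at least 6 arrays, the receptors showed no relation that could be measured (Pearson's r = 0.04, exact permutation p = 0.947 over 720 pairings, two-sided, n = 6, and Spearman's rho = -0.12, exact permutation p = 0.839). Without replicates 1 and 2, the arrays farthest from the median of *cxcr4a*, r was 0.72 over 4 arrays (exact permutation p = 0.292). Across all 13 arrays the deviations of each receptor from its group mean had r = 0.40, a description over points of 3 groups in which *hMYC-1* replicate 3 lay lowest on both axes.

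**Figure D3:**
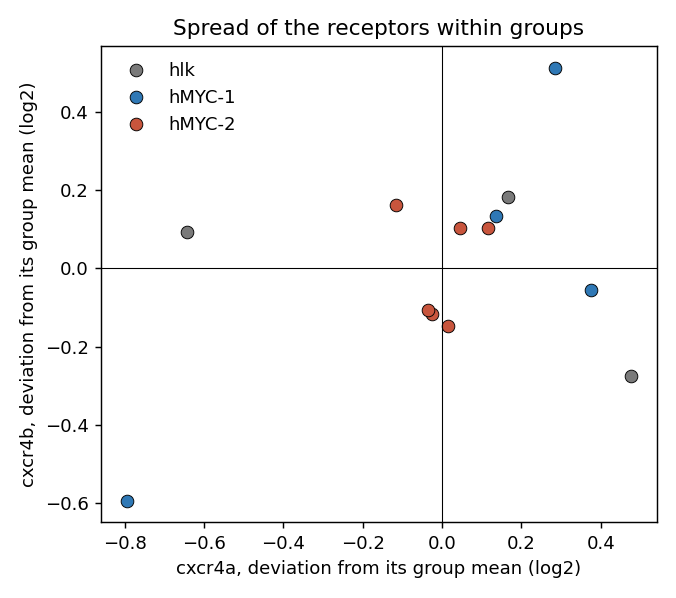
Deviation of *cxcr4b* (vertical axis, log2) against that of *cxcr4a* (horizontal axis, log2) from their group means, with 1 point per array colored by group. The 6 *hMYC-2* arrays form a tight cloud, and *hMYC-1* replicate 3 lies lowest on both axes.

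Over all arrays, many genes followed *cxcr4a* more closely than *cxcr4b* did, whereas only *pax5* followed *cxcr4b* more closely than *cxcr4a* did. Over the 13 arrays and 8792 other named genes, the highest Pearson's r with *cxcr4a* were those of *cyfip1* (0.990), a regulator of actin branching through the WAVE complex, *kif1b* (0.989), a kinesin motor, *cyba* (0.989), the small membrane subunit of the NADPH oxidase, *dpysl5a* (0.988) and *ptp4a3a* (0.988), a tyrosine phosphatase. *cxcr4b* ranked 47th in that order at r = 0.972. For *cxcr4b* the order was led by *pax5* (0.979), the transcription factor that commits cells to the B lineage, followed by *cxcr4a* (0.972), by *cd74b* (0.968), an invariant chain gene, by *spi1b* (0.967), a transcription factor of myeloid and B cells, and by *ass1* (0.967), an enzyme of arginine synthesis. Most of such a correlation is the step from *hlk* to *hMYC*, which all these genes shared: *cyfip1* had means of 4.31, 8.94 and 8.93 over *hlk*, *hMYC-1* and *hMYC-2*, and *pax5* had means of 4.70, 8.32 and 9.03.

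With the group means removed the companions changed. Deviations of *cxcr4a* were followed most closely by *tbl2* (r = 0.898), *rpl13* (0.868), a ribosomal protein gene, *tpma* (0.866), *snap29* (0.855) and *nek7* (0.852), and *cxcr4b* was 1099th. *tpma* lay under the control tags on every array. The means of *snap29* over *hlk*, *hMYC-1* and *hMYC-2* (5.29, 4.56 and 4.90) were under them too. Deviations of *cxcr4b* were followed by *btg2* (0.929), *cd74a* (0.842), *nr4a1* (0.836), *dusp1* (0.831) and *egr1* (0.815), and *cxcr4a* was 802nd. 4 of these 5 genes, all but *cd74a*, are known as genes induced within minutes by stimulation or stress. *btg2* read 10.38, 9.36, 7.64 and 9.82 in the 4 *hMYC-1* arrays. *cxcr4b* put these arrays in the same order, with replicate 1 highest and replicate 3 lowest. As *btg2* was picked for this likeness, the shared order in *hMYC-1* adds no support to it. *nr4a1* read 12.08, 8.98, 6.09 and 12.15 there, with replicate 3 again lowest, and averaged 12.18 in *hlk* and 13.19 in *hMYC-2*. Neither gene passed the test between *hMYC-2* and *hMYC-1* (*btg2* difference 2.03, limma adjusted p = 0.100, and *nr4a1* difference 3.37, adjusted p = 0.169). Their part in the level of *cxcr4b* was not tested.

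The genes on either side of the receptors were also read, by their order in the GRCz12tu assembly. Of the 10 protein-coding genes nearest to *cxcr4a*, 5 were measured. Only *si:ch73-71c20.5* passed the limma test between all *hMYC* and *hlk* (all named genes: 13.1% higher, 15.3% lower). It was higher by 0.35 (adjusted p = 0.0113), and *ical1*, the nearest measured gene, differed by 0.17 (adjusted p = 0.137). Of the 10 nearest to *cxcr4b*, 3 were measured. *gmppaa*, an enzyme subunit of sugar-nucleotide synthesis 3 genes away, rose by 0.98 (adjusted p = 3.3e-05), and *hnmt* and *si:ch1073-416j23.1* differed by -0.03 and 0.14 (adjusted p = 0.87 and 0.26). The genes measured around each receptor are too few to set these counts apart from the share of all named genes.

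The other genes of the receptors' pathway came from lists of 281 genes, of which 137 were measured and tested with limma, adjusted over all 15502 probe sets at a threshold of 0.05. Between all *hMYC* and *hlk*, 27 rose and 19 fell, against a background of 13.1% of all named genes higher and 15.3% lower. The median difference was -0.09 for the pathway genes and -0.06 for all named genes. With the arrays shifted to equal housekeeping genes the split was 29 higher and 8 lower, since that shift moved *hMYC* up by 0.16 against *hlk*. Most of this offset came from *hlk* replicate 1, the array set apart by RNA quality. Its shift was -0.43, against 0.00 and 0.05 in *hlk* replicates 2 and 3 and -0.14 to 0.28 in the *hMYC* arrays. In *hMYC-1* against *hlk* 25 rose and 11 fell, with 10.6% and 10.3% of all genes as background, and in *hMYC-2* against *hlk* 27 rose and 18 fell, with 12.4% and 15.2%. With the replicate number as a block, 28 genes in place of 45 passed in *hMYC-2* against *hlk*.

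Among the ligands, *cxcl12b* rose and *cxcl12a* stayed at background. *cxcl12b* read 3.01, 2.96 and 3.06 in *hlk*, all under the control tags. In *hMYC-1* it read 4.81, 7.30, 7.50 and 7.55, and in *hMYC-2* 7.58, 5.68, 4.33, 5.73, 6.19 and 7.31, so that 7 of 10 *hMYC* arrays lay above the control tags and no *hlk* array overlapped them. The means were 6.79 ± 1.32 (S.D., n = 4) and 6.14 ± 1.19 (n = 6). The fitted difference of all *hMYC* from *hlk* was 3.39 (SE 0.66, adjusted p = 0.0022), and with *hlk* set to the background bound *cxcl12b* was at least 1.64-fold higher. With the replicate block the call in *hMYC-2* against *hlk* was lost (adjusted p = 0.0977 in place of 0.0061). *cxcl12b* ranged over 3.25 within *hMYC-2*, while *cxcr4a* ranged over 0.23 and *cxcr4b* over 0.31. *cxcl12a* averaged 3.80 over *hlk*, 3.81 over *hMYC-1* and 3.65 over *hMYC-2* arrays, all under the control tags.

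CXCL12 is made by stromal and vessel cells, and markers of endothelium were read beside it. All 6 measured endothelial genes, *kdrl* and *tie1* among them, were under the control tags in all 13 arrays, and the list's mean relative to *hlk* ran from -0.15 to 0.17 in *hlk* and from -0.21 to -0.03 over all *hMYC* arrays. The arrays with the highest and the lowest *cxcl12b* could not be assigned to a cell type from these lists.

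Partners of the receptor moved in opposite directions. *cd74a* and *cd74b*, the invariant chain genes whose human counterpart pairs with CXCR4 as a receptor for MIF, both rose. *cd74b* read 8.60, 9.25 and 9.30 in *hlk*, 12.01, 11.92, 10.92 and 11.96 in *hMYC-1*, and 11.56 to 12.03 over the *hMYC-2* arrays, with *hMYC-1* replicate 3 again the lowest *hMYC* array. The differences of all *hMYC* from *hlk* were 2.70 (SE 0.22, adjusted p = 1.5e-06) for *cd74b* and 2.09 (SE 0.24, adjusted p = 3.7e-05) for *cd74a*. Their ligand gene *mif* was expressed at 10.04 ± 0.41 (S.D., n = 3) in *hlk* and 9.72 ± 0.19 (n = 10) in *hMYC*, a difference that did not pass (adjusted p = 0.166).

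*tpst1l*, annotated as like *tpst1* and so of the tyrosylprotein sulfotransferase family, fell. Sulfation of the receptor's tyrosines by this family strengthens ligand binding in human CXCR4. *tpst1l* read 10.24, 9.68 and 10.12 in *hlk*, 6.24, 6.66, 7.72 and 7.29 in *hMYC-1*, and from 6.24 to 6.78 in *hMYC-2*, without overlap. The difference was -3.30 (SE 0.25, adjusted p = 1.1e-06). *tpst1* itself was under the control tags in all arrays (4.75 and 4.46 in *hlk* and *hMYC*, adjusted p = 0.0796), as was the scavenger receptor *ackr3b* (2.73 and 2.64, adjusted p = 0.46). *cxcl14*, a chemokine that binds CXCR4 in mammals, passed the test at -0.30 (adjusted p = 0.0491) at levels under the control tags, and it lost the call in 16 of 19 alternative settings.

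**Figure D4:**
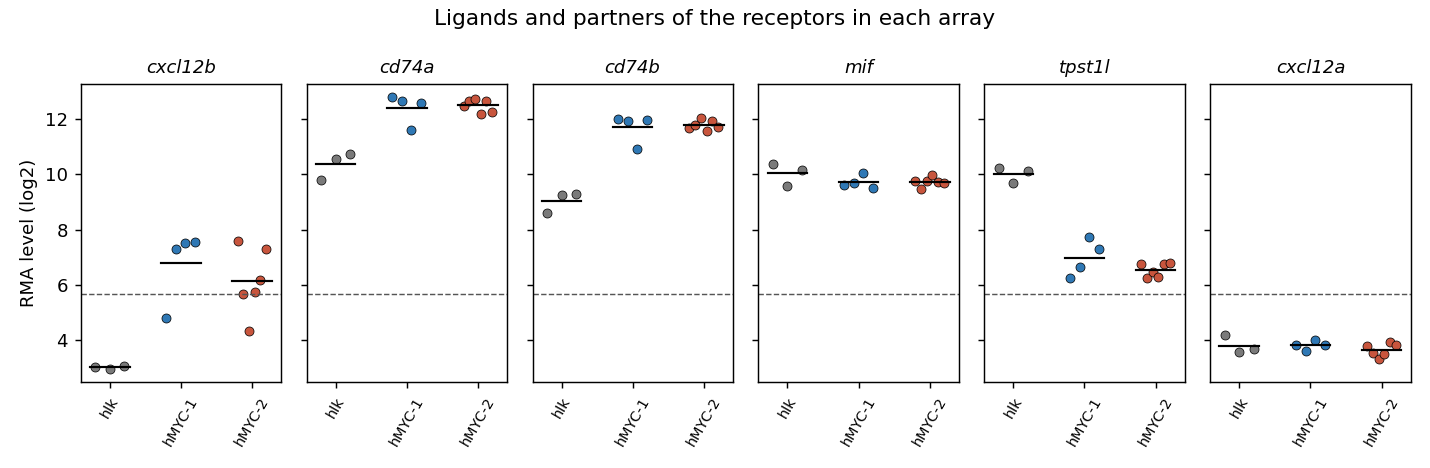
RMA log2 level (vertical axis) of 6 ligands and partners of the receptors by titled group, with 1 point per array, the bar giving the group mean and the dashed line the brightest control tag at 5.68. *cd74a* and *cd74b* were higher and *tpst1l* lower in every *hMYC* array than in every *hlk* array, *cxcl12b* spread from 4.33 to 7.58 within *hMYC*, and *cxcl12a* stayed under the line.

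Of 15 measured G protein subunits, 5 rose and 3 fell between all *hMYC* and *hlk* (all named genes: 13.1% higher, 15.3% lower). Members of the inhibitory class, through which CXCR4 signals, were split. *gnai1* averaged 9.34 against 8.72 (difference 0.62, adjusted p = 0.0022) and *gnai2a* 8.62 against 8.06 (0.56, adjusted p = 0.0111), whereas *gnai2b* averaged 8.15 against 9.12 (-0.97, adjusted p = 0.0197), a call lost with the replicate block, with array weights and without *hlk* replicate 1 or 2. *gna11b*, of the Gq class, rose by 1.77 (adjusted p = 9.9e-06), and as all *hlk* arrays were under the control tags it was at least 2.33-fold higher. The gamma subunit *gng10* rose by 0.49 (adjusted p = 0.00076) and *gng7* differed by -0.30 (adjusted p = 0.0132), both at or below the level of the control tags on average. The call of *gng7* was lost with the replicate block, with array weights, after the shift to equal housekeeping genes and without *hlk* replicate 1.

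Of 45 effectors, 8 rose and 5 fell (all named genes: 13.1% higher, 15.3% lower). *pxna*, a paxillin gene of focal adhesions, averaged 6.37 in *hMYC* and 3.67 in *hlk*, where it was under the control tags, so it was at least 1.61-fold higher (fitted difference 2.70, adjusted p = 9.1e-08). *jak2a*, a tyrosine kinase of cytokine receptors, rose by 1.59 (adjusted p = 4.5e-07). *vav3b*, a guanine nucleotide exchange factor, fell by 1.53 (adjusted p = 1.5e-06), and with all *hMYC* arrays under the control tags it was at least 1.58-fold lower. The actin-binding *coro1a* fell by 0.83 (adjusted p = 0.00036) and *cdc42l* by 0.57 (adjusted p = 0.00048), the latter not past the threshold after the shift to equal housekeeping genes.

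Of 16 genes of receptor desensitization, 2 rose and 3 fell (all named genes: 13.1% higher, 15.3% lower). *rgs14a*, a regulator that shortens signaling by inhibitory G proteins, rose by 0.93 (adjusted p = 0.00026). The beta-arrestin genes *arrb2a* and *arrb2b* fell by 0.38 (adjusted p = 0.0163) and 0.31 (adjusted p = 0.0299), calls lost after the shift to equal housekeeping genes, and with array weights. That of *arrb2a* was also lost with the replicate block and without *hlk* replicate 1, and that of *arrb2b* with a trended and robust prior and without *hlk* replicate 2 or 3. *rgs13a* (difference 1.88, adjusted p = 0.0473) and *usp14* (-0.36, adjusted p = 0.0448) were past the threshold and lost it in 11 and 16 of 19 alternative settings. *rgs13a* differed from *hlk* by 2.93 in *hMYC-2* (limma adjusted p = 0.0075, lost with the replicate block) and by 0.31 in *hMYC-1* (adjusted p = 0.83). Its difference between *hMYC-2* and *hMYC-1*, 2.63, did not pass (adjusted p = 0.118).

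Few other chemokine genes could be read. 1 of 25 other chemokine receptors was measured, *cxcr3.3*, which did not pass. Of 22 other chemokines 5 were measured, and 0 passed by limma in any of the 4 comparisons. At most 1 of them had an unadjusted p under 0.05 in a comparison.

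Of 9 measured adhesion and egress genes, 4 rose and 1 fell (all named genes: 13.1% higher, 15.3% lower). *klf2a* and *klf2b*, transcription factors that in mouse T cells keep the egress receptor S1PR1 and L-selectin expressed, rose by 3.85 (adjusted p = 0.00038) and 2.27 (adjusted p = 0.00029, at least 2.64-fold with *hlk* under the control tags). The receptor gene *s1pr1* itself was measured and was not among the changed genes. *klf2a* read 4.70, 5.17 and 8.61 in *hlk*, with replicate 3 far above the other 2, and 9.32 to 10.71 in *hMYC*. *cd164*, a sialomucin that associates with CXCR4 in human cells, rose by 0.78 (adjusted p = 0.00036). *cd44a*, a hyaluronan receptor, averaged 5.75 against 3.68 (adjusted p = 0.0053), which is at least 1.05-fold with *hlk* under the control tags. *itgae.2*, an integrin alpha chain of the epithelial-homing type, fell by 3.95 (adjusted p = 7.1e-06).

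Of 18 measured regulators placed upstream of CXCR4, 2 rose and 3 fell (all named genes: 13.1% higher, 15.3% lower). *pax5* read 4.90, 4.49 and 4.70 in *hlk*, under the control tags, and 7.51 to 9.15 in *hMYC*. It was at least 8.35-fold higher (fitted difference 4.04, adjusted p = 1.3e-07). *myca*, a zebrafish *MYC* ortholog, fell from 10.56 ± 0.07 (S.D., n = 3) to 6.09 ± 1.15 (n = 10), by 4.47 (adjusted p = 1.9e-06). The other ortholog in the list, *mycb*, was measured and was not among the changed genes. *egln3*, an oxygen-sensing prolyl hydroxylase, rose by 2.14 (adjusted p = 0.0024). *usf2* fell by 0.47 (adjusted p = 0.0014) and *nrf1* by 0.69 (adjusted p = 0.0151), and both calls were lost after the shift to equal housekeeping genes, *nrf1* also with the replicate block and without *hlk* replicate 2 or 3.

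CXCR4 is a known target of hypoxia-inducible factors in mammals, and 20 genes of that response were read. 4 rose and 2 fell between all *hMYC* and *hlk* (all named genes: 13.1% higher, 15.3% lower). The 4 include *egln3*, which is also in the list of upstream regulators. *ddit4*, a stress-induced inhibitor of mTORC1, averaged 5.53 ± 0.71 (S.D., n = 3) in *hlk* and 10.49 ± 1.39 (n = 10) in *hMYC*, a difference of 4.96 (adjusted p = 0.00025). *ldha*, lactate dehydrogenase, rose by 1.94 (adjusted p = 4.2e-05) and the glucose transporter *slc2a3a* by 1.75 (adjusted p = 0.00011, at least 1.11-fold). *vegfaa* (-0.24, adjusted p = 0.0167) and *pfkfb4b* (-0.78, adjusted p = 0.0481) passed in the other direction, *vegfaa* at levels under the control tags, and they lost the call in 5 and 13 of 19 alternative settings, among them the shift to equal housekeeping genes, the replicate block and the fit without *hlk* replicate 3.

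Between *hMYC-2* and *hMYC-1*, 2 of the 137 pathway genes rose and 0 fell by limma, with 0.546% of all named genes higher and 0.125% lower, and 25 (18.2%) had an unadjusted p under 0.05, against 12.7% of all named genes. *ldha* read 9.10, 8.33, 8.92 and 9.24 in the *hMYC-1* arrays and 9.43 to 10.41 in the *hMYC-2* arrays, a difference of 1.13 (adjusted p = 0.048). *myca* averaged 4.99 and 6.82, a difference of 1.83 (adjusted p = 0.048). In *hMYC-1* it read 5.06, 3.51, 5.29 and 6.11, and only the last of these exceeded the control tags. The size of its difference therefore rests on values in the background range. No array of either gene overlapped between the groups, and both calls were lost in most alternatives, *ldha* in 14 of 19 and *myca* in 13 of 19. The 2 ligand genes and the other CXCL12 partners differed by at most 0.65 in size and did not pass, and 0 of these 9 genes had an unadjusted p under 0.05.

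Cell type markers moved with the receptors between *hlk* and *hMYC*. All 8 measured B-cell genes rose in *hMYC*, among them *btk* (4.65 in *hlk* against 8.40, adjusted p = 2.1e-08), *spi1b* (4.52 against 9.17, adjusted p = 2.1e-07) and *blnk* (4.49 against 8.42, adjusted p = 4.6e-05), and in *hlk* each of the 8 lay under the control tags. These 3 genes were at least 6.59-fold, 11.2-fold and 6.69-fold higher. The study had already named *pax5*, *btk*, *cd81*, *syk* and *blnk* as over-expressed in *hMYC* ALL from these same arrays. The rise of the list is therefore a description and no independent evidence. Of all named genes, 13.1% were higher and 15.3% lower in *hMYC* than in *hlk* by limma. The mean of the B-cell list relative to *hlk* ran from 3.87 to 5.06 across the *hMYC-1* arrays and from 4.69 to 4.96 across the *hMYC-2* arrays. Of 5 measured T-cell genes 3 fell, *gata3* by 3.96 (adjusted p = 3.7e-05, at least 4.25-fold), *runx3* by 3.13 (adjusted p = 2.5e-05) and *rag1* by 3.01 (adjusted p = 0.0283), and *tox* rose by 0.49 (adjusted p = 0.0343), while *cd28* was under the control tags throughout. The list's mean relative to *hlk* ran from -2.03 to -0.83 across the *hMYC-1* arrays and from -2.31 to -2.02 across the *hMYC-2* arrays. *hMYC-1* replicate 3, the lowest *hMYC* array for both receptors, had the lowest B-cell mean (3.87) and the highest T-cell mean (-0.83) of the *hMYC* arrays. It also had the largest GAPDH 3′ excess of the *hMYC* arrays (2.49). *hMYC-1* replicate 1 went the other way. Its B-cell mean was the highest of all arrays (5.06), while both its receptors (12.06 and 11.93) lay below every *hMYC-2* array. *rag1*, a recombinase gene, was at 5.50 in *hlk* replicate 1, the array set apart by RNA quality, and 11.16 and 10.53 in the other *hlk* arrays. The study reports high *rag1* in zebrafish T lymphoblasts but not in B lymphoblasts, unlike in mammals. In such bulk samples fewer cells of a type and less RNA per cell cannot be told apart, for the receptors as for the markers. The part of B-lineage content in the receptor levels of these arrays was not tested. Outside these arrays, the study reports higher *cxcr4a* by qRT-PCR in GFP-dim pre-B ALL than in GFP-bright T-ALL. It also reports in situ staining of *cxcr4a* that was like that of B-cell *cd79b* and opposite to that of T-cell *lat*.

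Neutrophils and macrophages also use CXCR4, and their markers were read for the same reason. Of 8 measured neutrophil genes 4 exceeded the control tags on any array, and the defining *lyz* and *mmp9* did on none, while *mpx* reached at most 5.80. *ncf1*, an oxidase subunit that B cells share, rose from 3.46 to 11.32 (adjusted p = 1.6e-11, at least 50.0-fold), and with *srgn* it set the list's mean relative to *hlk*, which was 0.77 to 1.1 over all *hMYC* arrays. Of 6 macrophage genes 2 exceeded the control tags, with *csf1ra* and *marco* under them on all arrays, and the list's mean ran from -0.42 to -0.06 over the *hMYC* arrays. Erythroid, thrombocyte, NK-cell and muscle lists stayed between -0.44 and 0.44 in *hMYC*. Only 1 of 9 erythroid, 1 of 6 thrombocyte, 0 of 2 NK-cell and 4 of 10 muscle genes exceeded the control tags on any array. Most genes of these lists thus gave no signal above background, and the list means do not show that content was constant. The erythroid gene above the tags, *hbaa1*, averaged 6.01 in *hlk*, 6.75 in *hMYC-1* and 6.99 in *hMYC-2*.

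**Figure D5:**
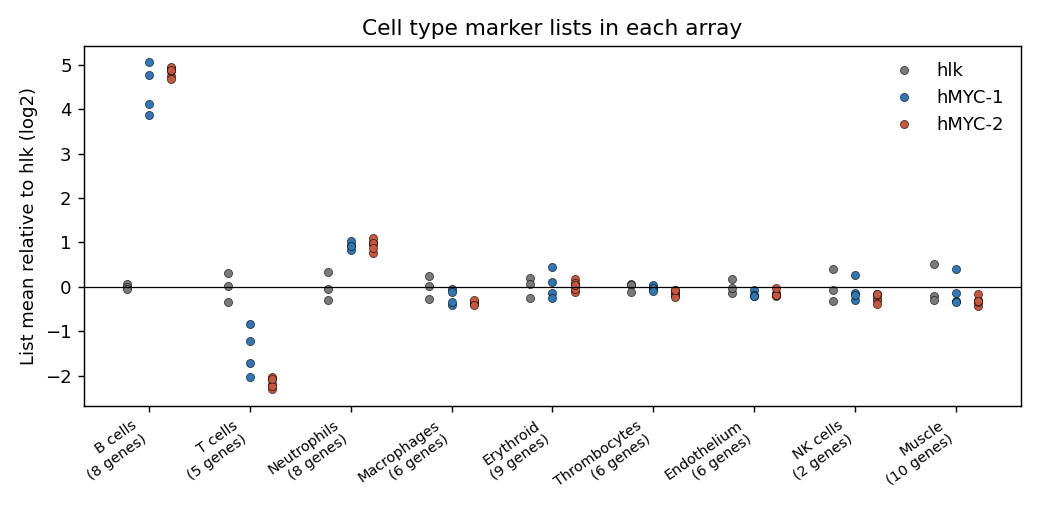
Mean log2 level of each cell type marker list relative to its mean in *hlk* (vertical axis), with 1 point per array and the number of genes measured under each list. The B-cell list lies at 3.87 to 5.06 and the T-cell list at -2.31 to -0.83 in *hMYC* arrays, and the neutrophil list at 0.77 to 1.1.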

How the data were processed

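GFP+ cells had been sorted from adult fish with ALL and total RNA extracted with Trizol. The RNA was amplified with the 3′ IVT Express kit and hybridized to Affymetrix Zebrafish Genome Arrays, 1 fish per array. The values deposited by the authors are log2 levels from RMA run over the whole dataset. They were used as given. Replicates are separate titled samples, 1 fish each (10 *hMYC* and 3 *hlk*).

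The 115 control probe sets were left out, which left 15502. Probe sets were named from the platform annotation: 10795 carried 1 symbol, 135 several (left unnamed), and the others none. The probe set with the highest mean stood for a gene. Symbols and gene order came from GRCz12tu gene tables. No coordinates or sequences of the receptors were used here.

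Tests were fitted with limma 3.58.1 (R 4.3.3), 1 mean per titled group over 13 arrays, and p-values were adjusted by Benjamini-Hochberg across the 15502 probe sets. The code was tested on simulated data. Bounds ("at least") set a group that lay under the control tags on every array to the brightest tag. The correlation used an exact permutation test. The members and all gene lists were chosen with earlier results of these data known. Named genes were both receptors, the 5 genes most like each by Pearson's r over all arrays and by deviations from group means, all measured CXCL12 partners, up to 6 changed genes per other list with the smallest adjusted p, and markers that moved with a result. One effector that the rule named is not reported here. Values of *btg2* and *nr4a1* per array were added after seeing the data.

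Replicate numbers come from the sample titles, which name no pairing or batch. Deviations of same-numbered arrays correlated at 0.23 to 0.32 in all 3 pairs of *hMYC-2* with *hlk*. The values were -0.15 to 0.10 for *hMYC-1* with *hlk* and -0.32 to 0.17 for *hMYC-2* with *hMYC-1*. Differently numbered arrays were not compared, so these values cannot show that the numbers pair arrays. The replicate block is an alternative setting only, and it leaves fewer degrees of freedom than the main fit.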

Additional observations from a re-analysis of the deposited data

Results flagged for a closer look

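In 28 groups of 14 genes, 4 arrays lay apart from the rest of their group by Dixon's criterion, of which chance gives about 1 in 20 groups. *cxcl12b* was 4.81 in *hMYC-1* replicate 1, against 7.30 to 7.55 in the other 3 arrays. *cd74b* was 10.92 in *hMYC-1* replicate 3, against 11.92 to 12.01, and this array was also the lowest *hMYC* array for *cxcr4a* and *cxcr4b*. *cxcl14* was 3.40 in *hMYC-1* replicate 2, against 3.76 to 3.81, all under the control tags. *egln3* was 7.69 in *hMYC-2* replicate 4, against 8.72 to 9.0. Neither receptor had such an array in *hMYC-1* or *hMYC-2*. The causes were not tested.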

How the results depend on the processing

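Every difference between *hMYC* and *hlk*, and between *hMYC-2* and *hMYC-1*, kept its direction for both receptors in all alternatives run. With each array left out in turn, the difference of all *hMYC* from *hlk* ran from 6.06 to 6.62 for *cxcr4a* and from 2.78 to 3.03 for *cxcr4b*, that of *hMYC-1* from *hlk* from 5.71 to 6.30 and from 2.34 to 2.71, that of *hMYC-2* from *hlk* from 6.29 to 6.85 and from 3.05 to 3.28, and that of *hMYC-2* from *hMYC-1* from 0.32 to 0.71 and from 0.48 to 0.85. The shift of *cxcr4a* against *cxcr4b* ran from 3.09 to 3.84. A shift to equal housekeeping genes (*actb1*, *eef1a1l1* and *gapdh*) gave 6.54 and 3.08 for all *hMYC* and 6.75 for *cxcr4a* in *hMYC-2* against *hlk*. Medians in place of means gave 6.44 for *cxcr4a* in *hMYC-2* against *hlk* and 0.37 in *hMYC-2* against *hMYC-1*. The gaps between the *hMYC* groups, examined after seeing the data, changed sign: quantile normalization gave -0.0081 for *cxcr4a* and -0.01 for *cxcr4b*, and the housekeeping shift -0.25 and -0.0033. The correlation of the receptors within *hMYC-2* was -0.36 after quantile normalization, 0.50 after the housekeeping shift and -0.12 as Spearman's rho, so its sign depended on the setting.

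The count of changed pathway genes stayed within 1.5 times of 46 for all *hMYC* against *hlk* in all alternatives (34 to 47, arrays left out included). In *hMYC-1* against *hlk* it was 36, and 20 by a shrinkage t. That setting used Benjamini-Hochberg, whereas the study's methods pair a shrinkage t with a local false discovery rate, so it is not the study's procedure. In *hMYC-2* against *hlk* the replicate block gave 28 in place of 45, and it moved no other count against *hlk* by as much. In *hMYC-2* against *hMYC-1* the count of 2 became 4 with array weights, 1 after quantile normalization and 1 after the housekeeping shift, 0 by the shrinkage t, 0 with the replicate block, and 0 to 1 with each array left out. The causes were not tested. Low signal limits what can be read of *cxcr4a* in *hlk* and of *cxcl12a*, *ackr3b* and *tpst1* in all groups.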
